A study of Mus musculus with 4 samples.

Results

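The Notch ligands Dll1 and Jag2 and the Notch effectors Hes1, Hes5, Hey1 and Hey2 were followed through sorted cells of the newborn mouse cochlea, with and without gentamicin. These 6 genes were taken by their symbols from the 23420 genes that the deposited tables list, and all 6 were listed and had enough reads to be tested. After 3 h of gentamicin, the hair cell samples held less Dll1, Hes1, Hes5 and Hey1 RNA, with treated levels 0.246 to 0.548 times those of the controls. Neither Jag2 nor Hey2 passed the test in hair cells when all 4 groups were fitted together. Both passed with the hair cell groups fitted alone, Jag2 as lower and Hey2 as higher. In non-hair cells none of the 6 genes passed in either kind of fit. Both ligands were far higher in hair cells, whereas Hes1 was higher in non-hair cells.

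Cochleae were dissected at postnatal day 1 from Atoh1-GFP transgenic mice of the CD1 strain, in which GFP driven by an Atoh1 enhancer marks hair cells, and were kept in organ culture overnight. Treated organs then received 0.5 mM gentamicin, an aminoglycoside antibiotic that damages hair cells, for 3 h, and control organs did not. GFP positive cells (hair cells, HC) and GFP negative cells (non-hair cells, NHC) were sorted by FACS from each, which gave 4 groups with 3 replicates each, described by the study as biological replicates. All groups share the transgene, the strain, the age and the culture with penicillin. The GFP reporter is also weakly active in inner phalangeal cells, a kind of supporting cell, and the sorting gate was set to leave such weakly labelled cells out. The GFP negative sort held supporting cells together with the cells of the neighbouring epithelial ridges and surrounding tissue, so its values average over many cell types.

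Notch signalling passes between touching cells. A ligand on one cell, such as Dll1 or Jag2, binds a Notch receptor on its neighbour, the receptor is cut, and its intracellular part joins the DNA-binding protein RBPJ and switches on genes of the Hes and Hey families. In the organ of Corti, the sensory strip of the cochlea, young hair cells carry ligands, and the Hes and Hey repressors in the surrounding supporting cells hold down Atoh1, the transcription factor that makes hair cells. Ligand and effector are therefore thought of as sitting in different cells.

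Promoter sequence from RefSeq (build GRCm38.p6) was at hand for 4 of the 6 genes: Dll1, Jag2, Hes5 and Hey2. In windows from 250 bases before to 50 bases after the start, both strands were searched for TGGGAA, the core of the site that RBPJ binds. Hes5 and Hey2 each held this core 2 times, and their promoters are shown because Hes5 fell in treated hair cells while the values of Hey2 did not. Each is written 5′ to 3′ along the strand of the gene, ends a few bases past the start, and has the core in capitals, as TGGGAA on the forward and TTCCCA on the reverse strand. The third sequence lies before an upstream start of Dll1 and held no TGGGAA, but it held CAGCTG, an E-box of the kind bound by basic helix-loop-helix factors, here in capitals. The window of Jag2 and that of the other Dll1 start held neither motif and are not shown.
Hes5, chr4:154960673-154960928, plus strand: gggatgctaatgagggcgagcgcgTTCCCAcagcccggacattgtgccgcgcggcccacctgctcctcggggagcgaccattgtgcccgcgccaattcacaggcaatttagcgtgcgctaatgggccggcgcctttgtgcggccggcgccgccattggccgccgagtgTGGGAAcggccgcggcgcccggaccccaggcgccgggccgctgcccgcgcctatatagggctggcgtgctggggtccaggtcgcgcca
Hey2, chr10:30842778-30843033, minus strand: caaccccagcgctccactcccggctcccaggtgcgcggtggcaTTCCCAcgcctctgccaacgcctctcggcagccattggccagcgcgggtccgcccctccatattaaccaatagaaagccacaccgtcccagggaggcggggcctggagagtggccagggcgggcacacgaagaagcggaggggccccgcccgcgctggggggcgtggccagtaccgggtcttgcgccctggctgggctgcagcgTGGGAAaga
Dll1, chr17:15376927-15377182, minus strand: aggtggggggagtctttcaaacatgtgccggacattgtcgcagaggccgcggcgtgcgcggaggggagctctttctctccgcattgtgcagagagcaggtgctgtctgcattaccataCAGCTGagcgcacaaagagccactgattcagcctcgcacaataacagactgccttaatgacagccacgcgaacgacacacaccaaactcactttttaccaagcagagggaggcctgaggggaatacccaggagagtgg
The forward core of Hes5 lay 82 to 77 bases before the start and the reverse one 226 to 221 bases before it. In Hey2 the forward core began 3 bases before the start and ran across it, and the reverse one lay 207 to 202 bases before it. The E-box of Dll1 lay 132 to 127 bases before the start. Among all 32851 mouse promoter windows of this length, 25.6% held TGGGAA and 3.79% held it 2 or more times, while 16.3% held CAGCTG. In the windows searched, the 2 motifs were found in different genes. Such matches describe the letters only, and binding was not measured.

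Recovered reads on genes ranged from 22399851 to 28151367 per replicate. All 10 hair cell markers examined were higher in control HC than in control NHC, with a median log2 difference of 7.72, and Pou4f3 stood at 1.04–1.25 in control NHC, where 1 is the value of a gene without reads. Supporting cell markers did not separate the sorts in this way. Of 10 such genes, 3 were higher and 3 lower in control HC, 4 did not pass the test, and none was without reads in any replicate. Their normalized read numbers, summed here and for other marker lists after taking off the added 1, came to 1973–2230 in control HC and 1536–2092 in control NHC. Some of them, such as Gata3, are known in young hair cells too. The study checked its GFP positive cells by sorting them again and by staining for the hair cell marker Myosin VI, and reported high purity. As these are bulk samples, fewer cells of a type cannot be told apart from less RNA per cell.

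Levels of different genes were compared per kilobase of the longest coding transcript (normalized reads per kilobase without the added 1, mean ± SD, n = 3). In control HC, Jag2 stood first at 211 ± 5.32 and was followed by Hes5 at 56.1 ± 16.3. Hey1 (34.8 ± 5.71), Hes1 (25.6 ± 9.71) and Dll1 (24.7 ± 0.711) came next, and neighbours among these 3 had overlapping replicates. Hey2 was lowest at 7.19 ± 0.536. In control NHC the order turned, with Hes1 first at 82.0 ± 18.5, then Hey1 at 46.9 ± 13.1 and Hes5 at 43.4 ± 23.2, whose replicates overlapped. Jag2 (10.5 ± 2.26) and Hey2 (8.80 ± 2.63) overlapped below them, and Dll1 was last at 1.54 ± 0.383. In the HC sort, Jag2 thus stood well above all 4 effectors and Dll1 did not.

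After gentamicin, Jag2 remained first in HC at 159 ± 20.4 reads per kilobase, and Hes5 (13.9 ± 7.29), Hey1 (13.9 ± 3.14) and Dll1 (13.4 ± 1.15) could not be ordered by their replicates. Hey2 (9.38 ± 0.378) and Hes1 (9.31 ± 1.31) overlapped at the lower end. In treated NHC the order was the same as in control NHC, from Hes1 at 61.6 ± 24.8 to Dll1 at 0.902 ± 0.349.

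**Figure D1:**
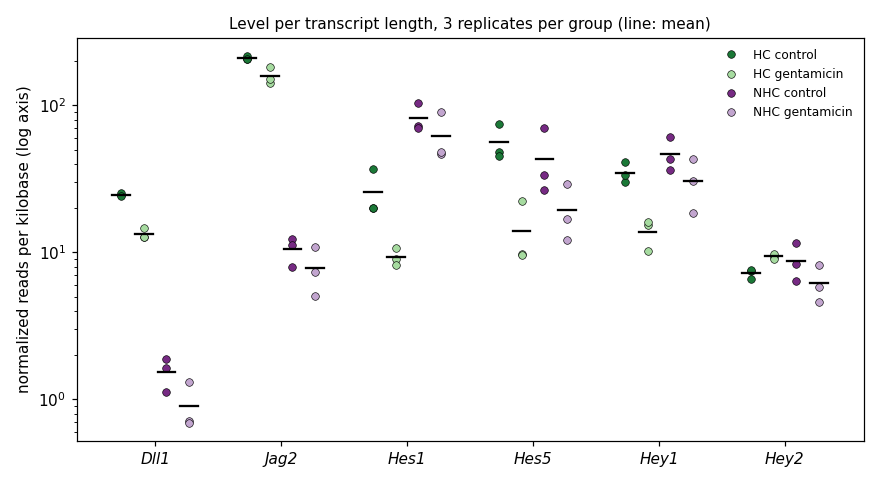
Normalized reads per kilobase of the longest coding transcript (log axis) for the 6 genes, with 1 point per replicate, a line at the mean and a colour for each of the 4 groups. Jag2 lies above the other genes in both HC groups, and Hes1 is the highest of the 6 in both NHC groups.

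The control sorts were compared to see in which population each gene was higher. Of the 6 genes, 3 passed the test at an adjusted p under 0.05 (limma, Benjamini-Hochberg over all 16077 genes tested), beside 74.1% of all genes tested in this comparison. Both ligands were higher in HC, as were 31.9% of all genes tested, and Hes1 was higher in NHC, as were 42.2%.

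Dll1, the Delta-like ligand of nascent hair cells (chromosome 17, 15367354–15376872, minus strand, GENCODE M21 on mm10), had normalized read numbers of 88.8, 92.1 and 87.1 in control HC. In control NHC its values were 5.01, 7.69 and 6.83. No NHC replicate came near the HC replicates, and the log2 difference was 3.80 (SE 0.20, limma adjusted p = 1.19e-08). The NHC values rest on 97 to 169 reads per replicate.

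Jag2, the Jagged ligand typical of hair cells (chromosome 12, 112907819–112929776, minus strand), had 1067, 1108 and 1057 in control HC. Its values in control NHC were 41.7, 63.8 and 58.6. This ligand thus showed the larger difference of the pair, 4.32 on the log2 scale (SE 0.23, limma adjusted p = 1.51e-08).

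Hes1, a Notch-induced repressor found in supporting cells and many other cell types (chromosome 16, 30064384–30067796, plus strand), had 30.3, 30.5 and 55.1 in control HC. In control NHC it had 107, 104 and 153. Replicate 3 was the highest of its group in both sorts, and the groups did not overlap. The log2 difference was -1.69 (SE 0.28, limma adjusted p = 2.04e-04).

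The other 3 effectors did not pass the test between the control sorts. Hes5, an effector of supporting cells (chromosome 4, 154960923–154962371, plus strand), had 62.4, 58.6 and 96.2 in control HC against 44.1, 34.8 and 89.9 in control NHC. Replicate 3 was again highest in both, so that the groups overlapped although the HC replicate was the higher of each equally numbered pair. The log2 difference was 0.45 (95% interval -0.48 to 1.38, limma adjusted p = 0.351). The replicate numbers paired the control sorts. With the number as a block and these groups alone the limma adjusted p was 0.0203, and it was 0.00932 with the block and all 4 groups.

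Hey1, a related repressor (chromosome 3, 8663359–8667256, minus strand), had 73.5, 82.0 and 101 in control HC against 88.5, 105 and 150 in control NHC. It was lower in HC within each numbered pair, with a log2 difference of -0.40 (95% interval -1.03 to 0.23, limma adjusted p = 0.227). With the block and these groups alone the limma adjusted p was 0.00478, whereas it was 0.0797 with the block and all 4 groups. Hey2, which in the organ of Corti is best known from pillar cells (chromosome 10, 30832359–30842801, minus strand), had 19.98, 17.8 and 20.3 in control HC against 17.4, 22.3 and 30.7 in control NHC. These groups overlapped, and the log2 difference was -0.24 (95% interval -0.71 to 0.22, limma adjusted p = 0.321).

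**Figure D2:**
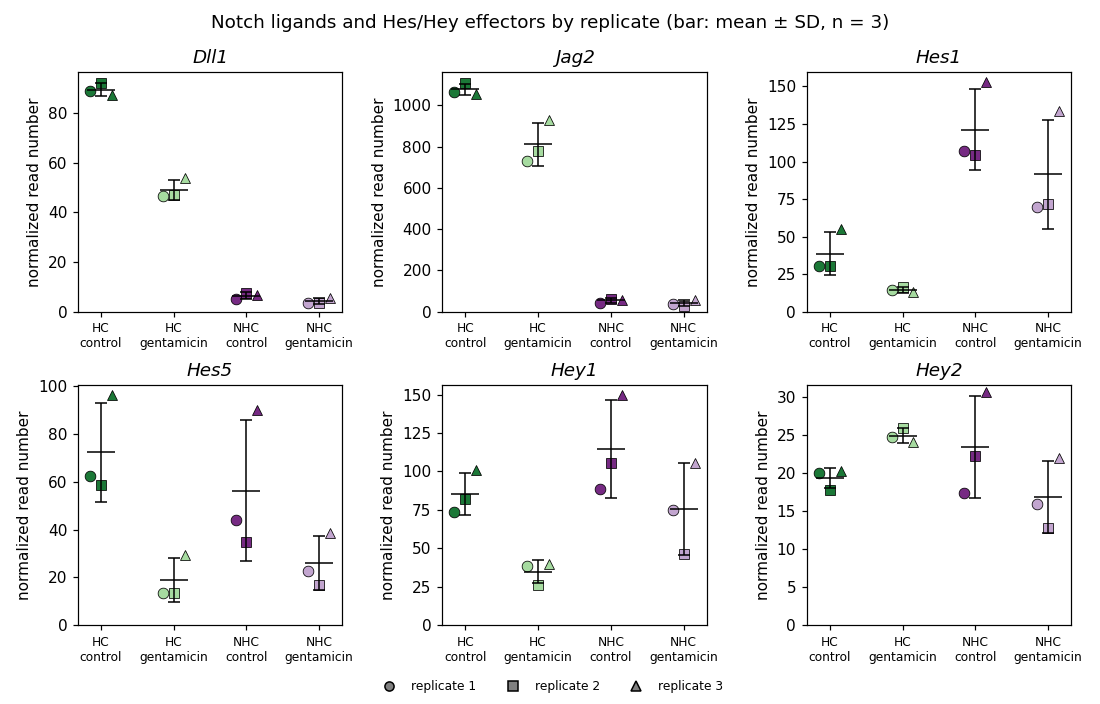
Normalized read number of each gene in the 4 groups, with a symbol for each replicate and bars for mean ± SD (n = 3). In HC the treated replicates of Dll1, Jag2, Hes1, Hes5 and Hey1 lie below all controls and those of Hey2 above them, and in NHC replicate 3 is the highest treated replicate of every gene.

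In hair cells, gentamicin was compared with control to see how ligands and effectors stood after 3 h of the drug. Of the 6 genes, 4 passed the test and all 4 were lower, beside 18.4% of all genes tested that were lower and 33.2% that passed in either direction. The median log2 difference was -1.09 over the 6 genes and -0.09 over all genes tested. All 3 treated replicates lay below all 3 controls for 5 of the 6 genes, beside 33.1% of all genes tested, and above them for Hey2, beside 21.7%. The exact permutation test of 3 replicates against 3 cannot go below p = 0.1 (two-sided), and each of the 6 genes reached that value.

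Of the ligands, Dll1 fell from the control values of 88.8, 92.1 and 87.1 to 46.5, 46.8 and 53.8 after gentamicin. The replicates lay close together on both sides, with a wide gap between the groups. The treated level was 0.548 times the control, a log2 difference of -0.87 (SE 0.20, limma adjusted p = 0.0066). Jag2 went from 1067, 1108 and 1057 to 731, 778 and 930. Its groups did not overlap either, but treated replicate 3 was nearer to the controls, and the log2 difference of -0.41 (95% interval -0.92 to 0.09) had a limma adjusted p of 0.189. Fitted with the HC groups alone, where the spread of NHC replicates no longer counted, Jag2 had a limma adjusted p of 0.0197.

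Among the effectors, Hes5 showed the largest difference of the 6 genes. Its treated HC replicates had 13.4, 13.3 and 29.4 against 62.4, 58.6 and 96.2 in the controls. The highest treated replicate was thus well under the lowest control, and the treated level was 0.246 times the control (log2 difference -2.02, SE 0.42, limma adjusted p = 0.00424).

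Hes1 had 14.2, 16.8 and 13.0 in treated HC against 30.3, 30.5 and 55.1 in the controls. Control replicate 3 stood above its fellows, and the treated replicates were close together. The level fell to 0.394 times the control (log2 difference -1.34, SE 0.28, limma adjusted p = 0.00458). Hey1 had 38.1, 25.9 and 39.8 against 73.5, 82.0 and 101. It fell to 0.401 times the control (log2 difference -1.32, SE 0.29, limma adjusted p = 0.00557).

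Hey2 went against the other effectors in its values. Treated HC had 24.8, 25.9 and 24.0, all above the controls at 19.98, 17.8 and 20.3. The log2 difference of 0.37 (95% interval -0.10 to 0.83) did not pass the test, with a limma adjusted p of 0.206, although it did with the HC groups fitted alone (limma adjusted p = 0.0172). Hey2 rests on 392 to 646 reads per HC replicate.

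**Figure D3:**
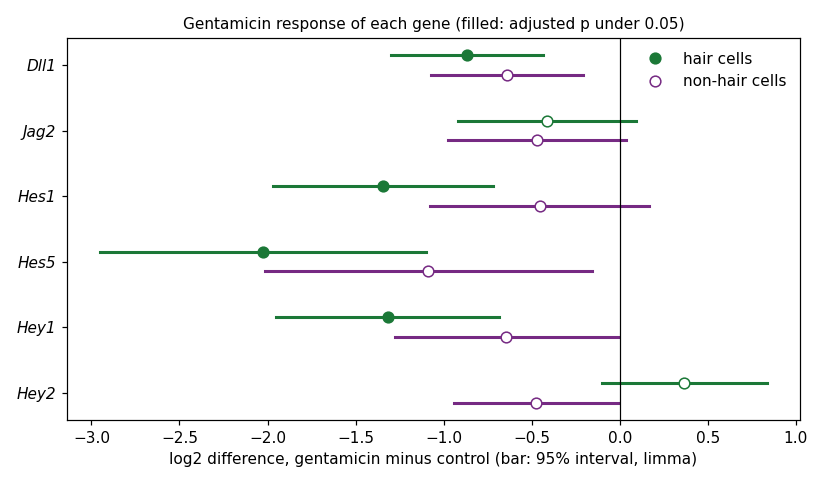
Log2 difference between gentamicin and control for each gene, with 95% intervals from limma, in HC (green) and NHC (purple). Filled points have an adjusted p under 0.05. These are Dll1, Hes1, Hes5 and Hey1 in HC, and no point is filled in NHC.

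Values of other cell types moved in the same HC samples. The summed normalized read number of the 10 supporting cell markers was 1973–2230 in control HC and 1422–1884 in treated HC. Of these markers 2 passed the test, both lower, beside 18.4% of all genes tested, and their median log2 difference was -0.61. Estimated from 44 markers of cells outside the sensory epithelium, the HC replicates held 10.6%, 14.5% and 11.3% of the NHC level of these markers without drug and 6.46%, 6.51% and 7.70% with it. When this share of the NHC level was taken off, the same 4 genes passed the test, beside 10.6% of all genes tested that were lower and 18.7% higher. Their log2 differences were -0.86 for Dll1, -1.37 for Hes1, -2.03 for Hes5 and -1.30 for Hey1. This step cannot address supporting cell RNA. The supporting cell markers summed to 1973–2230 in control HC and 1536–2092 in control NHC, so such a share takes off little of it. Levels were also set relative to the supporting cell markers of each replicate, which shifted the median of all genes by 0.506 in this comparison. Hes1 (log2 difference -0.84, limma adjusted p = 0.0282), Hes5 (-1.52, limma adjusted p = 1.1e-04) and Hey1 (-0.81, limma adjusted p = 0.0222) were lower on this scale too. Dll1 at -0.36 no longer passed the test (limma adjusted p = 0.364), Jag2 turned to 0.09, and Hey2 at 0.87 passed it (limma adjusted p = 0.0274). On this scale 0.765% of all genes tested were lower and 17.9% higher. Centring takes the same marker mean from every gene of a replicate, so all genes share its error. The standard errors became alike, 0.29 for Hes5 beside 0.42 before centring and 0.30 for Dll1 beside 0.20. The limma p-values on this scale treat the spreads of the genes as separate evidence, which they are not. Its calls are therefore a description only. The part of the supporting cell RNA in the effector differences was not tested beyond these values.

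In non-hair cells, none of the 6 genes passed the test after gentamicin, beside 0.342% of all genes tested. All 6 log2 differences were below 0. At an unadjusted p under 0.05 there were 4 of the 6 (Dll1, Hes5, Hey1 and Hey2), beside 17.1% of all genes tested, and voom weights in limma gave 0 calls as well. The study asked for an unadjusted p under 0.01 and a change of more than 1.2 times, and only Dll1 met this, beside 5.44% of all genes tested. Fitted with the NHC groups alone, the unadjusted limma p was 0.0453 for Dll1, 0.0439 for Hes5, 0.0956 for Hey1 and 0.132 for Hey2. Dll1 no longer met the study's p in that fit, where 0 of all genes tested passed at an adjusted p under 0.05. None of the 6 genes had all treated replicates outside the controls, where 7.68% of all genes tested had them all below and 10.1% all above. In each of the 6, treated replicates 1 and 2 lay below every control and replicate 3 did not.

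Hes5 again had the most negative value. It had 22.6, 16.5 and 38.5 in treated NHC against 44.1, 34.8 and 89.9 in the controls. Treated replicate 3 lay between control replicates 1 and 2, and the log2 difference was -1.09 (95% interval -2.01 to -0.16, limma adjusted p = 0.227). It passed with the replicate number as a block (limma adjusted p = 0.0292), although the numbers did not pair treated with control columns. Hey1 had 75.1, 46.1 and 106 against 88.5, 105 and 150, and the log2 values differed by -0.64 (limma adjusted p = 0.284).

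Hes1, the highest of the effectors per kilobase in this sort, had 69.4, 71.4 and 133 in treated NHC against 107, 104 and 153. Its treated replicate 3 was above both lower controls, and the log2 difference was -0.45 (95% interval -1.08 to 0.17, limma adjusted p = 0.438). Hey2 had 15.9, 12.7 and 21.9 against 17.4, 22.3 and 30.7, with a log2 difference of -0.47 (limma adjusted p = 0.284). The effectors thus shared 1 pattern over the replicates, with number 3 highest in each NHC group.

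The ligand values in NHC were low. Dll1 had 3.55, 3.47 and 5.67 in treated NHC against 5.01, 7.69 and 6.83, from 66 to 133 reads per treated replicate, and the log2 difference was -0.64 (95% interval -1.07 to -0.21, limma adjusted p = 0.149). Without treated replicate 3 it was -0.87 and passed the test (limma adjusted p = 0.0488). Jag2 had 38.3, 27.0 and 56.8 against 41.7, 63.8 and 58.6, with a log2 difference of -0.47 (limma adjusted p = 0.323). Of the hair cell markers, 0 of 10 passed the test in treated NHC, and their summed level was 243–267 in the controls and 251–315 after the drug. Most of this sum was Myo6, with 180.5–222.4 in the controls and 190–284.7 after the drug. Pou4f3 stood near 1, at 1.04–1.25 and 1.15–1.74. The 8 neuronal markers had sums of 454, 1005 and 1027 in control NHC and 473, 235 and 786 in treated NHC. None of them passed the test, their median log2 difference was -0.82, beside -0.56 for the 6 genes, and their part in the NHC values was not tested.

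Supporting cell markers varied between the NHC replicates in the same order as the effectors in part. Their mean log2 value was 6.87, 7.08 and 7.43 in control NHC and 6.998, 6.51 and 7.25 in treated NHC. Treated replicate 2 was thus lowest for these markers, as for Hes5, Hey1 and Hey2, and replicate 3 was highest for all of them in both groups. In control HC the mean was 7.07, 7.14 and 7.21 and in treated HC 6.70, 6.27 and 6.94. Whether the number of supporting cells set the effector levels was not tested.

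**Figure D4:**
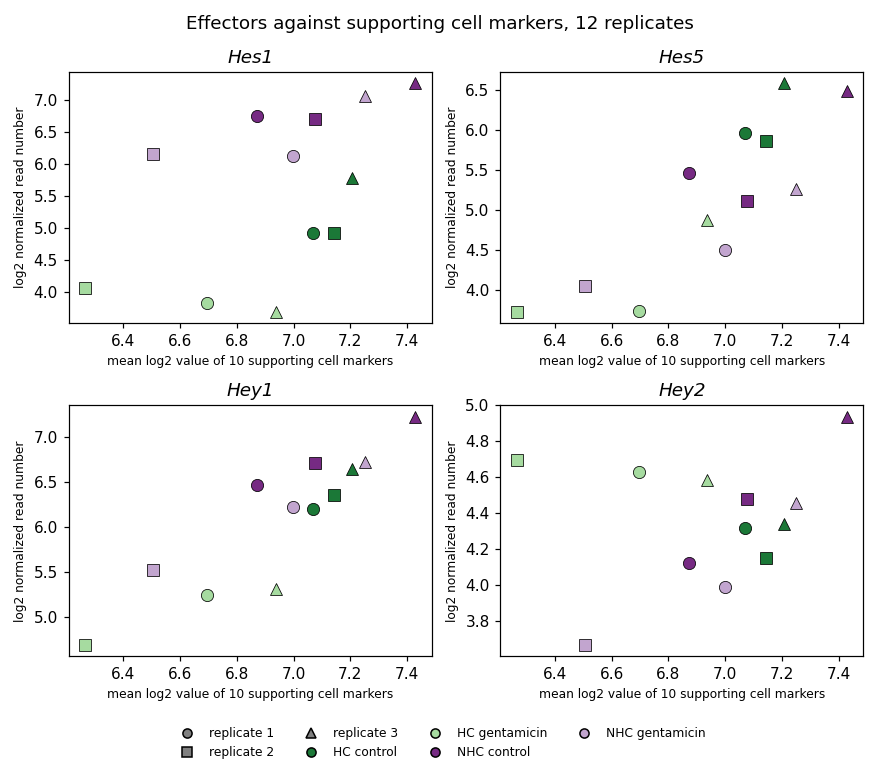
Log2 normalized read number of the 4 effectors against the mean log2 value of 10 supporting cell markers in each of the 12 replicates (colour: group, symbol: replicate number). NHC replicate 3 lies at the upper right of its group in each panel, and treated HC replicates lie below control HC for Hes1, Hes5 and Hey1 but not for Hey2.

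The difference between the HC and NHC responses was tested in the same fit, and none of the 6 genes passed, beside 13.4% of all genes tested. At an unadjusted p under 0.05 there were 2 of the 6, Hey2 and Hes1, beside 30.3% of all genes tested, and voom weights gave 0 calls. For Hey2, whose log2 difference was above 0 in HC and below 0 in NHC, the difference of the log2 responses was 0.84 (95% interval 0.18 to 1.502, limma adjusted p = 0.0854). Without NHC control replicate 1 it was 1.04 and without NHC gentamicin replicate 3 it was 1.05, and it passed the test in both (limma adjusted p = 0.037 and 0.0281). Hes1 (-0.89, limma adjusted p = 0.162), Hes5 (-0.94, limma adjusted p = 0.316) and Hey1 (-0.67, limma adjusted p = 0.292) had wide intervals. With the replicate number as a block Hes5 passed (limma adjusted p = 0.0131), although the numbers did not pair treated with control columns. For Dll1 the value was -0.23 (95% interval -0.84 to 0.38) and for Jag2 0.06 (95% interval -0.66 to 0.77). These effectors and Dll1 are hence not shown to respond in hair cells alone.

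Among the 50 other tested genes of a list of Notch pathway genes, 24 were lower and 3 higher in HC after gentamicin and 23 did not pass the test, with a median log2 difference of -0.29. Of all genes tested 18.4% were lower and 14.8% higher. All 4 Notch receptors were lower, as were 4 of 5 genes of ligand endocytosis, the step in which the sending cell pulls on the ligand. The 4 receptors were also lower in control HC than in control NHC, with a median log2 difference of -1.74. The part of other cells in their HC values was not tested. Of 9 genes of receptor cleavage 2 were lower, of 5 genes of receptor glycosylation 2, of 9 genes of the nuclear complex 4, and of 9 genes of inhibition and turnover 6, each count to be read against the same 18.4%. The genes that rose were Dll4, Itch and Snw1.

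Dll4, a Delta-like ligand best known from blood vessels, rose in HC, where Dll1 fell and Jag2 did not pass the test. It had 130, 142 and 129 in control HC and 219, 278 and 255 in treated HC, with no overlap. The log2 difference was 0.90 (SE 0.22, limma adjusted p = 0.00978). In NHC the values were 23.1, 35.9 and 40.1 without drug and 48.9, 55.8 and 85.7 with it, a log2 difference of 0.94 (limma adjusted p = 0.0861). The summed level of 8 endothelial markers in HC was 16.2–31.3 in the controls and 9.15–15.7 after the drug, and 2 of them were lower. In NHC it was 355–382 and 407–517, with 1 of 8 higher.

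Nrarp, itself a Notch target that feeds back to limit the pathway, fell in HC, as did Hes1, Hes5 and Hey1. In HC it had 52.6, 55.5 and 64.5 without drug and 20.8, 17.1 and 25.7 with it, without overlap (log2 difference -1.45, SE 0.23, limma adjusted p = 8.26e-04). In NHC it had 46.0, 49.8 and 71.6 against 33.4, 25.1 and 45.4, with a log2 difference of -0.70 that did not pass the test (limma adjusted p = 0.164).

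The other genes with the largest differences in HC were lower. Lfng, a Fringe glycosyltransferase that tunes the receptor's choice of ligand, had a log2 difference of -1.17 (limma adjusted p = 0.0151). It lost the call without HC control replicate 3 and without HC gentamicin replicate 2 (limma adjusted p = 0.0553 and 0.0548). Notch1, the main receptor of the sensory epithelium, had -1.02 (limma adjusted p = 0.0166), and lost it without HC control replicate 2 and without HC gentamicin replicate 2 (limma adjusted p = 0.0547 and 0.0671). Spen, a corepressor of RBPJ, had -0.98 (limma adjusted p = 1.39e-04). Of the risers, Itch, a ubiquitin ligase that marks Notch for degradation, had 0.42 (limma adjusted p = 5.29e-04) and Snw1, a coregulator also known as SKIP, had 0.37 (limma adjusted p = 0.00144). Relative to the supporting cell markers, 5 of the 50 genes were higher and 1 was lower in HC, beside 17.9% of all genes tested that were higher and 0.765% that were lower on this scale.

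In NHC, 1 of the 50 genes passed the test. This was Dtx3, of the Deltex family of ubiquitin ligases, which averaged 267 in the controls and 193 after the drug (log2 difference -0.46, limma adjusted p = 0.0327). Its call was lost without any 1 of NHC control replicates 1 and 2 and NHC gentamicin replicates 1 and 2 (limma adjusted p from 0.0516 to 0.149).

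**Figure D5:**
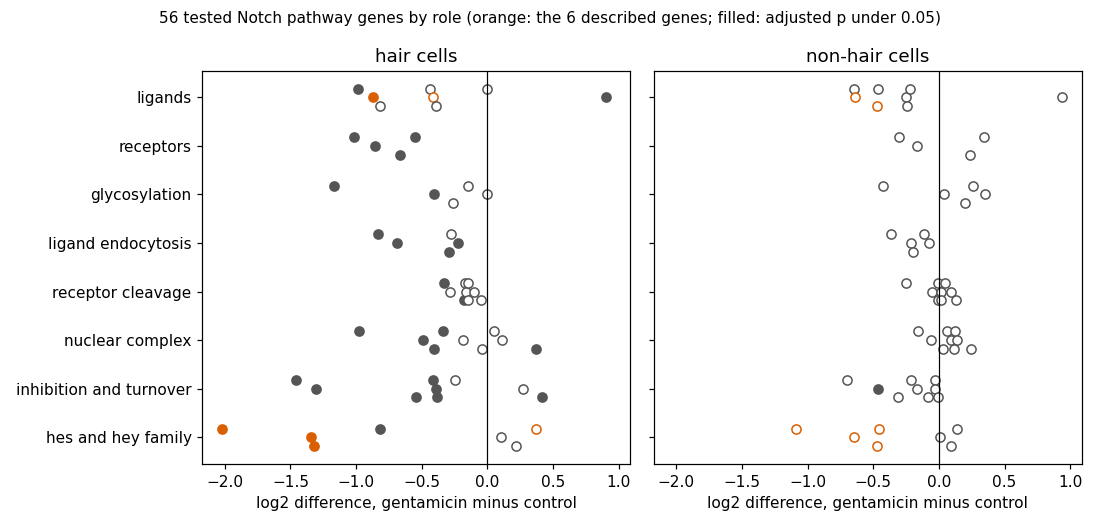
Log2 difference between gentamicin and control for 56 tested Notch pathway genes, ordered by role, in HC (left) and NHC (right). Orange points are the 6 genes described here and filled points have an adjusted p under 0.05. In HC 28 filled points lie below 0 and 3 above, and in NHC 1 is filled, below 0.

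Markers of other cells in treated HC are given here for all the lists examined. Passing the test and lower were 4 of 8 glial, 3 of 8 mesenchymal and fibrocyte, 3 of 5 tested pericyte, 1 of 8 neuronal, 1 of 4 tested melanocyte and 1 of 10 hair cell markers, beside 18.4% of all genes tested. Of 8 macrophage markers 1 was higher, and their summed level was 4.75–5.90 in control HC and 15.6–21.7 in treated HC. Apart from the endothelial marker named above, no marker of these lists passed the test in NHC. The part of these cells in the differences of ligands and effectors was not tested beyond the values above.

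The genes most alike to each of the 6 over the 12 replicates were sought among 13820 genes by Pearson's r of log2 values, as a description that mostly reflects the 4 groups the replicates share. For Dll1 they were Miat (0.998), Strbp (0.996) and Hpcal1 (0.996), and for Jag2 they were Lrrc10b (0.999), Mgat5b (0.998) and Sec22c (0.998). Dll1 and Jag2 correlated at 0.993 with each other.

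For Hes5 the most alike gene was Nrarp (0.948), ahead of Fndc7 (0.913) and Tmem170 (0.909). Hes1 was most like Ptp4a2 (0.982), Atg16l1 (0.9748) and 4931406C07Rik (0.971). Hey1 went with 2610528J11Rik (0.976), Sdk1 (0.974) and Slc44a2 (0.968), and Hey2 with Adamts6 (0.933), Otud1 (0.933) and Ccdc148 (0.931). Among the effectors Hey1 correlated with Hes1 at 0.816 and with Hes5 at 0.815, and Hey2 with none of the other 3 above 0.153.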

How the data were processed

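RNA of sorted cochlear cells was sequenced as 50 bp single-end reads. Per the labels and methods, the authors trimmed reads, aligned them to mm10 with TopHat 2 and deposited a normalized read score per gene and replicate. The deposited scores carry an added 1, and their scaling factor is not given in the sources used here. The methods name RPKM, but the score steps are not divided by gene length. The most frequent low score after taking off the 1, refined on its multiples, was taken as the value of 1 read. Dividing by it gave whole reads for 75.3–76.7% of low values, and the rest were not whole. The recovered reads were used for a minimum of 100 over 12 replicates, depth, scaling alternatives and voom only. Low read numbers limit precision, and the p-values measure the spread between these replicates.

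Log2 scores of 16077 genes were fitted in limma 3.58.1 (R 4.3.3) with 4 group means and a variance trend, two-sided, with Benjamini-Hochberg adjustment and a call at an adjusted p under 0.05. Alternatives were another offset (0.1), 3 scalings, other minima, voom, other samples in the fit, the replicate number as a block, the criteria of the study, a share of the NHC level taken off and leaving out each replicate. A further 2 were chosen after seeing the data, centring on supporting cell markers and the block with only the groups compared. The share came from the endothelial, mesenchymal, glial, macrophage, melanocyte and pericyte markers, without the neuronal list, since hair cells express such genes. Equally numbered control HC and NHC columns deviated together (correlations 0.216, 0.316 and 0.200). The procedure was tested on simulated data. The genes described and the lists were chosen with earlier results of these data known. By the rule for names, they are the 6 genes, the 4 called Notch list genes with the largest log2 difference per gentamicin comparison and direction with a mean of at least 5, and 3 most alike genes for each of the 6. Library strandedness is not given in the sources used here. Exons on the other strand overlap 20.5% of Dll1 (A930024N18Rik) and 31.8% of Hes5 exon bases (Gm20421), so reads of these pairs cannot be told apart without strand. Coordinates and lengths come from GENCODE M21, and promoters from RefSeq. Python 3.11.15, numpy 2.4.6, pandas 2.3.3 and matplotlib 3.10.9 were used.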

Additional observations from a re-analysis of the deposited data

Results flagged for a closer look

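For 2 of the Notch genes named above, the response to gentamicin differed between the populations in a test of the difference itself. Spen had a log2 difference of -0.98 in HC and normalized read numbers of 129 without and 138 with the drug in NHC, and the difference between the responses was -1.07 (SE 0.16, limma adjusted p = 0.00309). Itch had a log2 difference of 0.42 in HC and means of 95.4 and 93.5 in NHC, and the difference between the responses was 0.45 (SE 0.09, limma adjusted p = 0.0083). The interaction passed for 8 of the 50 other Notch genes, 1 higher and 7 lower, beside 13.4% of all genes tested, and for 0 of the 6 ligands and effectors.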

How the results depend on the processing

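In HC after gentamicin, 4 to 6 of the 6 genes passed under every alternative, 4 in each of the fits without 1 replicate. The count of 6 came with the HC groups fitted alone, beside 24% of all genes tested that were lower and 16.5% that were higher. With the block added it was also 6, beside 22.3% lower and 14.5% higher. Centred on supporting cell markers, the 4 were not the same genes. Dll1 lost its call and Hey2 gained one, as higher, beside 17.9% of all genes tested that were higher and 0.765% that were lower. Calls on the centred scale are a description only, since all genes share the error of the marker mean. Of 480 values of the 6 genes under alternatives, 458 kept direction and call, 14 gained and 1 lost a call and 7 changed sign. In NHC the count of 0 became 1 with the replicate block (Hes5, limma adjusted p = 0.0292), beside 0.0187% of all genes tested that were lower. It also became 1 with the study's criteria (Dll1), beside 5.44% of all genes tested, and was 0 to 1 without 1 replicate. The count of interaction calls went from 0 to 1 with the replicate block (Hes5, limma adjusted p = 0.0131), beside 7.41% of all genes tested that were lower. It was 0 to 1 without 1 replicate. Between the control sorts the count went from 3 to 5 with the replicate block and only the groups compared. Beside this, 43.1% of all genes tested were lower and 32.4% higher in that fit. Centred on supporting cell markers, the log2 difference of Jag2 in HC turned to 0.092 and the interaction of Dll1 to 0.0685. On this scale the genes whose groups did not overlap went from 6 to 3 in HC and from 0 to 4 in NHC. Centring shifted the median of all genes by 0.506 in HC and 0.207 in NHC. The share of all genes without overlap was not counted on this scale. These counts can therefore not be read as particular to the 6 genes. Without 1 replicate, the interaction of Dll1 lay between -0.36 and 0.0006774 and that of Jag2 between -0.21 and 0.3289.

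For the other Notch genes, centring took the count from 27 to 6 in HC, from 8 to 0 for the interaction and from 40 to 23 between the control sorts. Calls over all genes tested fell too. In HC 33.2% passed before centring, and 17.9% were higher and 0.765% lower after it. For the interaction 13.4% passed before, and 0.522% were higher and 0.0187% lower after. Between the control sorts 74.1% passed before, and 19.5% were higher and 30.7% lower after. Without 1 replicate the counts of the other Notch genes were 18 to 27 in HC, 5 to 11 for the interaction and 36 to 40 between the control sorts. In NHC their count of 1 became 2 with quantile normalization, 4 with the study's criteria and 0 with only the groups compared, with the replicate block, with both and with centring, and was 0 to 2 without 1 replicate. The cause of these changes was not tested.

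Over all genes, 44.5% of calls in HC were higher as reported, 61.9% with scaling by total reads, 59.0% with quantile normalization, 63.9% with the NHC share taken off and 95.9% centred on supporting cell markers.

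Equally numbered control and treated columns did not deviate together (correlations 0.0369, 0.0523 and 0.0369 in HC and 0.208, -0.232 and 0.683 in NHC), and not every replicate correlated best with its own number, so the numbers pair only the control sorts. In HC the block kept all 4 calls. Dll1 in NHC rests on at most 169 reads per replicate, which limits its precision. With the union of all exons as length, Dll1 and Hes1 changed places in control HC, Hes5 and Hey1 in control NHC, and in treated HC Dll1 came before Hey1 and Hes1 before Hey2.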
